A study of Mus musculus with 20 samples.

Results

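A set of 9 genes of ATP and ADP sensing and of the potassium leak that accompanies it in microglia were followed in 20 libraries. They were the receptor genes P2ry12, P2ry13, P2ry6, P2rx4 and P2rx7, the ectonucleotidase gene Entpd1 and the tandem pore domain potassium channel (K2P) genes Kcnk6, Kcnk12 and Kcnk13. Membership rested on the gene symbol alone, and all 9 symbols were listed among the 21315 in every library. All mice were C57BL/6 and 9 months old. APP-KI mice carry a humanised App gene with familial Alzheimer mutations in place of the mouse gene and deposit amyloid in the brain. C3aRKO mice lack C3ar1, the gene of the receptor for the complement fragment C3a, in all their cells. The groups not selected on C3aR, called all sorted here, held 3 WT, 3 APP-KI, 3 C3aRKO and 5 APP-KI;C3aRKO libraries of CD45mid CD11b+ cells. The C3aR+ groups held 3 libraries of WT and 3 of APP-KI cells that were also gated on a Td-tomato reporter in the C3ar1 locus. The labels do not say that replicates came from separate animals, so p-values measure the spread between libraries, which may be technical.

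Extracellular nucleotides are a main signal from injured or active cells to microglia. ADP acts through the Gi-coupled receptors P2Y12 and P2Y13, UDP through P2Y6, and ATP opens the cation channels P2X4 and P2X7, while CD39, the product of Entpd1, removes ATP and ADP from the outside of the cell. P2Y12 directs the extension of microglial processes towards a source of nucleotide and is a standard marker of the resting state. K2P channels carry the background potassium current that sets the membrane potential. THIK-1, the product of Kcnk13, is the main such channel of resting microglia and is opened through P2Y12, and potassium efflux through it is linked to release of interleukin-1 beta. THIK-2 (Kcnk12) is its closest relative, and TWIK-2 (Kcnk6) has been described as a potassium efflux route after P2X7 opens in macrophages.

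On GRCm38, P2ry13 (chromosome 3, 59207892 to 59210882) and P2ry12 (chromosome 3, 59216272 to 59262871) lie on the minus strand with 5389 bases between them, inside the gene body of Med12l, which is read from the other strand. P2rx7 (chromosome 5, 122643911 to 122691432) and P2rx4 (chromosome 5, 122707544 to 122729738) are both on the plus strand, with 16111 bases between them. The minus strand gene Kcnk12 spans 87745801 to 87797994 of chromosome 17. The window from 250 bases before to 50 bases after the start of transcription is shown for 4 members, taken from RefSeq on GRCm38.p6, because these are both neighbouring ADP receptor genes, the K2P gene with the largest difference and the member that moved against the others. Capitals mark matches, on either strand, to the letters GAGGAA (the PU box of the myeloid factor PU.1), TGCTGA (part of a MAF site) or ACGTG (the core of the hypoxia response element, which CACGTG holds on both strands).
P2ry12, chr3:59262936-59263235, minus strand: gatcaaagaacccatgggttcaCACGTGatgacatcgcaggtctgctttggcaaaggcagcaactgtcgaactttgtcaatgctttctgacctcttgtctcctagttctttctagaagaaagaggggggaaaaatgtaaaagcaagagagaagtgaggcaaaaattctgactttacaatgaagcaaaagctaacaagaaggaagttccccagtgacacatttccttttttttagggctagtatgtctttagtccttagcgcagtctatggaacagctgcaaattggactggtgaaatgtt
P2ry13, chr3:59210833-59211132, minus strand: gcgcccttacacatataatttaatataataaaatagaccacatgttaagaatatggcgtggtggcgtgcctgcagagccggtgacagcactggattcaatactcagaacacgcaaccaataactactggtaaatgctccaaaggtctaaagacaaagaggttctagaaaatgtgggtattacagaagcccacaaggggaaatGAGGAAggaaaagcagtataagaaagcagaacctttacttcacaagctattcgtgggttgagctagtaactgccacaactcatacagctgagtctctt
Kcnk12, chr17:87797945-87798244, minus strand: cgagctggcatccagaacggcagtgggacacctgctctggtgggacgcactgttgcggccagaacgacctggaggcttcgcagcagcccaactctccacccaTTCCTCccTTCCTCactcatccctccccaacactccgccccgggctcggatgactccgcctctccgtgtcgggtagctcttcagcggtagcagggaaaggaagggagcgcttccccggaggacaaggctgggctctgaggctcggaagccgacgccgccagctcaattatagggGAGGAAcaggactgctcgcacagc
P2rx4, chr5:122707294-122707593, plus strand: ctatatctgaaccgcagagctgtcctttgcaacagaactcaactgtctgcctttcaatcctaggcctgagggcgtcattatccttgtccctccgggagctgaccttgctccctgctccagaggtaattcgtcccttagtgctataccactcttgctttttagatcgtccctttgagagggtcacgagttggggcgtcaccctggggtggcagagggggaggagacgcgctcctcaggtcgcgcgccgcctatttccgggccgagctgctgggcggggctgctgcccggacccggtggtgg
The window of P2ry12 held CACGTG once, that of P2ry13 GAGGAA once and that of Kcnk12 GAGGAA 3 times, while that of P2rx4 held none of the 3 motifs. Of 32851 windows in the same table, 28.3% held GAGGAA, 19.5% TGCTGA and 19.6% ACGTG on either strand. Kcnk12 and P2rx4 had 20 and 18 CpG dinucleotides in their windows, P2ry12 had 4 and P2ry13 had 6, and the median window had 7. Windows were found for 7 of the 9 members, and P2ry6 and Kcnk6 had no entry. The RefSeq start of P2ry12 lies upstream of the gene span given above (59216272 to 59262871). Its window therefore lies wholly outside that span. The deposited values hold no measurement at these windows, so the matches are a description of letters.

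The libraries held from 13939559 to 30388941 counted reads in the C3aR+ groups and from 42239056 to 76608464 in the others. Values below are read counts scaled to a library's upper quartile of genes and multiplied by 1 constant; they are not divided by gene length unless that is said. Of the 14 all sorted libraries, 4 had few genes above 0 (12386 to 13249, against 14885 to 17445 in the other libraries), namely APP-KI 4, C3aRKO 1, C3aRKO 2 and APP-KI;C3aRKO 1, and APP-KI 5 listed nearly every symbol above 0 (21210). The members' differences that rest on them are given with and without the 4 libraries; without them 2 APP-KI, 1 C3aRKO and 4 APP-KI;C3aRKO libraries remain, and the lone C3aRKO library is taken to vary like the other groups. C3ar1 was at 276, 330 and 340 in WT and at 39.9 to 80.4 in the 8 knockout libraries. In the libraries labelled WT C3aR+ it was 71.0, 81.2 and 37.6, which is about the knockout level and goes against a sort on C3aR, while those labelled APP-KI C3aR+ held 383, 251 and 200.96. Microglial markers were present in all libraries (summed level of the 8 genes from 8764 to 27353, none at 0), and summed neuronal markers ran from 0.0452 to 32.7.

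In WT microglia P2ry12 was by far the highest member, and P2ry13 came next per kilobase of exon. Without division by length, Entpd1 (mean 988) stood above P2ry13 (769) in all sorted WT. Per kilobase of exon, the level in all sorted WT was 828 ± 75.7 (SD, n = 3) for P2ry12, 304 ± 27.2 for P2ry13, 177 ± 6.82 for Entpd1, 97.0 ± 5.36 for Kcnk6, 82.0 ± 5.01 for P2ry6, 63.2 ± 7.35 for P2rx7, 33.8 ± 3.84 for Kcnk13, 13.6 ± 0.815 for P2rx4 and 9.66 ± 0.346 for Kcnk12. No neighbours in this order overlapped between the 3 libraries. Among the K2P members, Kcnk6 thus stood above Kcnk13, the best known of the 3 in microglia, in these RNA levels.

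**Figure D1:**
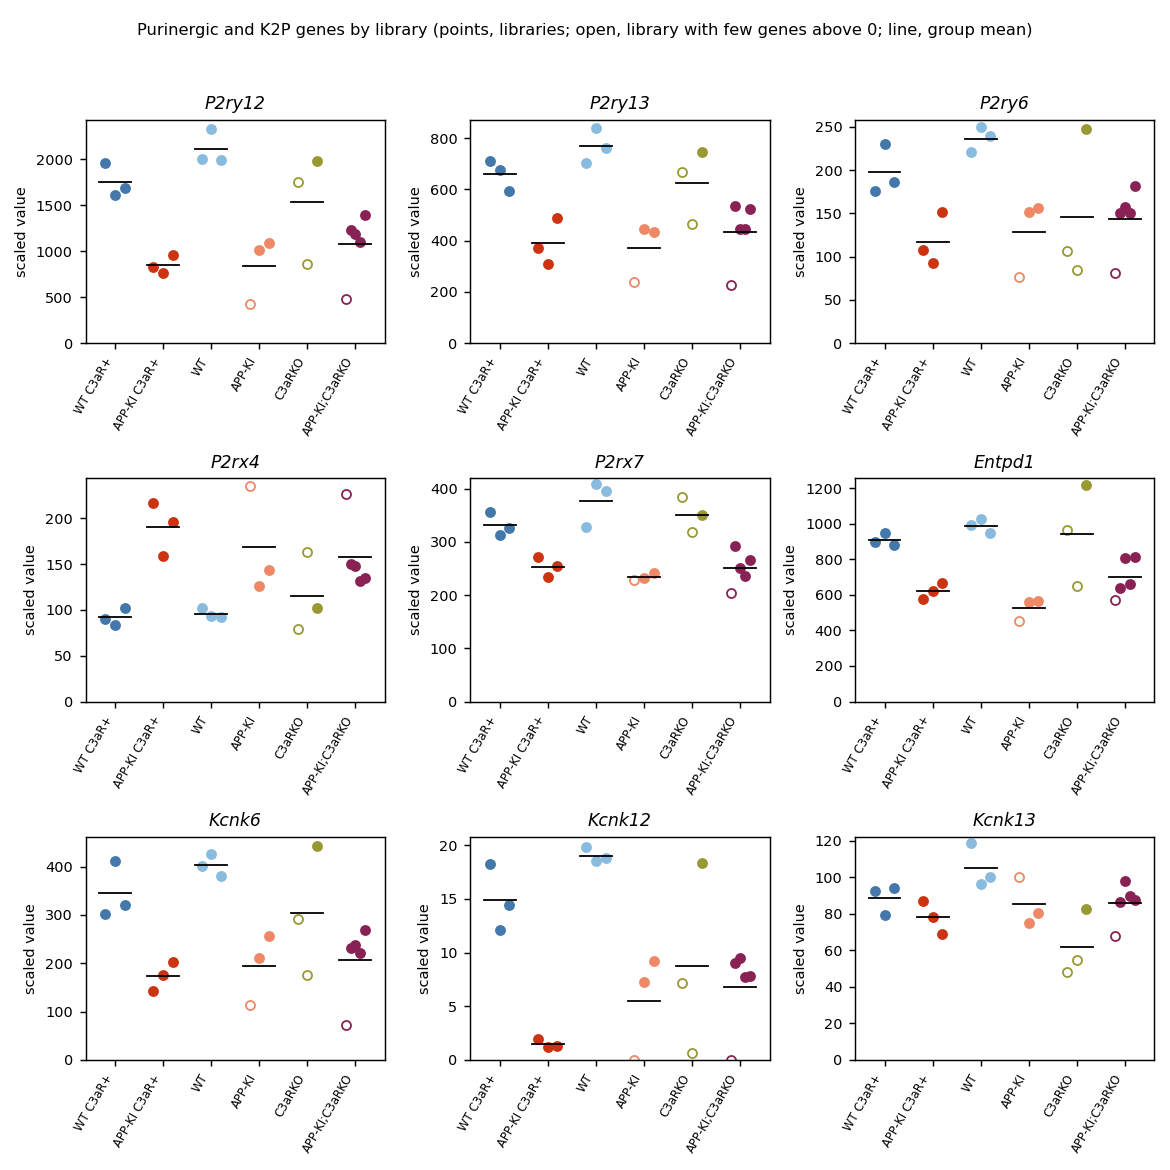
Scaled value (vertical axis, linear, from 0) of each member in each of the 20 libraries by group; lines are group means and open points the 4 libraries with few genes above 0. P2ry12 lies between 762 and 964 in APP-KI C3aR+ and between 1609 and 1959.6 in WT C3aR+, P2rx4 is higher in both APP-KI sorts, and Kcnk12 is at 0 in 2 of the open points.

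The first comparison asked what the App knockin did in C3aR+ microglia. In APP-KI, 7 members were lower and 1, P2rx4, was higher, and Kcnk13 did not pass the test. Thus 8 of 9 members were called, beside 22.7% of the 12312 genes tested (13% higher and 9.71% lower), and the median log2 difference was -0.77 for the members and -0.17 for all genes. The same 8 members had no overlap between groups, 7 lower and 1 higher, where 25.7% of all genes lay lower and 17.8% higher without overlap. All direction statements here rest on the libraries labelled WT C3aR+, whose C3ar1 level is given above.

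P2ry12 was at 1959.6, 1609 and 1686 in WT C3aR+ and at 831, 762 and 964 in APP-KI C3aR+. Every APP-KI library lay well below every WT library, with a log2 difference of -1.04 (standard error 0.14, adjusted p = 0.00102 from limma). P2ry13, the neighbouring receptor for ADP, had 709, 677 and 594 in WT and 370, 310 and 490 in APP-KI, a log2 difference of -0.78 (standard error 0.17). P2ry6, which senses UDP and is tied to phagocytosis, was at 176, 231 and 187 against 107, 93.0 and 151, lower, with a log2 difference of -0.77 (standard error 0.18, adjusted p = 0.0148). That call was lost without WT C3aR+ 2 (adjusted p = 0.0614), without APP-KI C3aR+ 2 (adjusted p = 0.0516) and with no filter on low values (adjusted p = 0.0548). All 3 metabotropic receptor genes were lower in APP-KI in these sorts.

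The ionotropic receptor genes, which are neighbours, went opposite ways. P2rx4, a channel found largely on lysosomes and raised in reactive microglia, had 90.4, 83.8 and 103 in WT and 217, 159 and 196 in APP-KI, with no overlap and a log2 difference of 1.03 (standard error 0.14, adjusted p = 0.00104). P2rx7, the low affinity ATP channel upstream of the inflammasome, had 357, 313 and 327 in WT and 271, 234 and 255 in APP-KI. Its log2 difference of -0.39 (standard error 0.11, adjusted p = 0.032) was the smallest among the members called, and the call was lost with edgeR, with DESeq2, with median ratio scaling and when any of 4 of the 6 libraries was left out. Entpd1 was at 895, 946 and 881 in WT and at 576, 623 and 665 in APP-KI, lower, with a log2 difference of -0.55 (standard error 0.11).

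The K2P members differed among themselves. Kcnk12 had 18.3, 12.1 and 14.4 in WT and 1.91, 1.17 and 1.34 in APP-KI, from 17 to 37 reads in the latter, and its log2 difference of -2.68 (standard error 0.39, adjusted p = 0.00134) was the largest of all members. Kcnk6 had 302, 412 and 320 in WT and 143, 176 and 202 in APP-KI, lower, with a log2 difference of -0.99 (standard error 0.16). Kcnk13 had 92.4, 79.5 and 94.4 in WT and 87.3, 78.5 and 69.0 in APP-KI; the groups overlapped and the log2 difference was -0.18 (95% confidence interval -0.49 to 0.13). That interval leaves out falls as large as those of the other K2P members.

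With median ratio scaling the median of all genes moved from -0.17 to -0.03, the calls over all genes changed from 1602 higher and 1196 lower to 1845 higher and 605 lower, and 5 members stayed called (P2rx4 higher; P2ry12, P2ry13, Kcnk6 and Kcnk12 lower). The calls of P2ry6 (-0.63, adjusted p = 0.0547), Entpd1 (-0.40, adjusted p = 0.0539) and P2rx7 (-0.24, adjusted p = 0.177) were lost under that scaling. Markers of other cell types differed in this comparison too. Of 7 border macrophage markers 5 were lower in APP-KI C3aR+, where their summed level was 184 to 414 against 484 to 713 in WT C3aR+. Summed endothelial and pericyte markers were 182 to 339.8 in APP-KI C3aR+ against 52.8 to 111 in WT C3aR+. Of the 6 endothelial and pericyte markers tested 1 was higher (Flt1, 3.75) and 1 lower (Pecam1, -2.09), so the list did not move one way. Their part in the members' differences was not tested, and in bulk samples fewer cells of a type and less RNA per cell cannot be told apart.

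Microglia not selected on C3aR were compared next. Every member but Kcnk13 separated APP-KI from WT without overlap, 7 lower and P2rx4 higher, where 16.4% of all genes lay lower and 12.8% higher without overlap. By the test across all 12407 genes only Entpd1 and P2rx7 were called, both lower, beside 4.14% of genes (2.22% higher and 1.93% lower). Without the 4 libraries with few genes all 9 members were called, 8 lower and P2rx4 higher, beside 27.9% of 12563 genes (14.7% lower and 13.2% higher). Summed border macrophage markers were at 451 to 1205 in WT and at 269 to 291 in APP-KI, with 2 of 7 lower (F13a1 and Mrc1) and 6 of 7 lower without the 4 libraries. Summed endothelial and pericyte markers were at 62.1 to 87.2 in WT and 210 to 273 in APP-KI, with Flt1 (4.26) higher of 6 tested and, without the 4 libraries, Flt1 higher (4.17) and Pecam1 lower (-1.54). Their part in the members' differences was not tested.

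P2ry12 had 2006, 2329 and 1986 in WT and 425, 1015 and 1086 in APP-KI. The lowest value was that of APP-KI 4, a library with few genes, and both other APP-KI libraries still lay below all WT libraries. The log2 difference was -1.25 (standard error 0.38, adjusted p = 0.0915) with it and -0.99 (standard error 0.12, adjusted p = 0.000418) without the 4 libraries. P2ry13 showed the same order, with 703, 840.1 and 763 in WT and 238, 446 and 433 in APP-KI, and the log2 difference was -0.97 with all libraries and -0.80 (adjusted p = 0.000975) without the 4. P2ry6 was at 221, 249 and 239.6 in WT and 76.8, 152 and 157 in APP-KI, a difference of -0.73 and -0.60 respectively.

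P2rx4 was at 102, 93.2 and 91.9 in WT and at 236, 126 and 144 in APP-KI. All 3 APP-KI libraries were above WT, APP-KI 4 by the most, and the log2 difference was 0.67 (adjusted p = 0.261) with all libraries and 0.48 (adjusted p = 0.00414) without the 4. P2rx7 was at 328, 409 and 396 in WT and at 229, 232 and 242 in APP-KI. Here APP-KI 4 did not stand apart, and the difference of -0.65 (standard error 0.15, adjusted p = 0.0247) was nearly the same without the 4 libraries (-0.66). Entpd1, at 992, 1024 and 948 against 450.1, 559.7 and 566, was lower, with a log2 difference of -0.82 (standard error 0.19, adjusted p = 0.0247). Leaving out WT 4, WT 5, APP-KI 4 or APP-KI 6 each ended both of these calls, with Entpd1 between -0.67 and -0.84 in those 4 fits, and leaving out WT 6 or APP-KI 5 ended that of P2rx7 (-0.63 and -0.66).

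Kcnk12 was at 19.8, 18.5 and 18.8 in WT and at 0, 7.23 and 9.21 in APP-KI. The 0 came from APP-KI 4, whose 0 reads allow a value of up to 0.0632 by counting error (3 reads). The fitted difference with this library depends on the pseudocount, and without the 4 libraries it was -1.13 (standard error 0.13, adjusted p = 0.000337). Kcnk6 had 401, 426 and 381 in WT and 114, 212 and 256 in APP-KI, -0.90 with all libraries and -0.77 without the 4. Kcnk13 had 119, 96.3 and 100.3 in WT and 100.02, 74.9 and 80.7 in APP-KI, which overlapped; the difference was -0.25 (adjusted p = 0.788) with all libraries and -0.43 (adjusted p = 0.012) without the 4. Within the earlier library series (2 APP-KI against 1 WT) and the later one (1 against 2) the differences of all 9 members had the same sign as the pooled ones, for example -1.61 and -0.99 for P2ry12 and 0.75 and 0.63 for P2rx4. The pooled differences rest on these same libraries, so the shared sign is no separate support. All 4 libraries with few genes, APP-KI 4 among them, belong to the earlier series.

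The knockin was also compared in mice that lack C3ar1. With all libraries 1 member was called in APP-KI;C3aRKO against C3aRKO, P2rx7, lower, with a log2 difference of -0.52 (standard error 0.14, adjusted p = 0.0316), beside 6.93% of genes (3.96% higher and 2.97% lower). It was also the only member lower in every APP-KI;C3aRKO library (205, 293, 251, 237 and 266) than in every C3aRKO library (385, 318 and 351), where 7.34% of all genes were lower and 6.34% higher without overlap. The call was lost when any of 8 libraries was left out (WT 5, WT 6, APP-KI 6, C3aRKO 1, C3aRKO 3 and APP-KI;C3aRKO 3, 4 and 5), with the difference then between -0.44 and -0.56. Without the 4 libraries 7 members were called, 6 lower and P2rx4 higher, beside 31.3% of genes (18.2% lower and 13.2% higher).

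Those 7 were the same genes as above apart from P2rx7 and Kcnk13. P2ry12 was at 1747, 864 and 1982 in C3aRKO and at 485, 1229, 1189, 1100.5 and 1388 in APP-KI;C3aRKO, and C3aRKO 2 and APP-KI;C3aRKO 1 were the lowest of their groups. The log2 difference was -0.65 with all libraries and -0.68 (standard error 0.15, adjusted p = 0.00815) without the 4. For P2ry13 it was -0.66 and -0.62, for Kcnk6 -0.77 and -0.86, and for Entpd1 -0.48 and -0.72. P2rx4, at 79.4, 163 and 102 against 227, 150.5, 148, 132 and 134, gave 0.57 and 0.45.

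Kcnk12 was at 7.21, 0.645 and 18.4 in C3aRKO and at 0, 9.00, 9.54, 7.75 and 7.81 in APP-KI;C3aRKO. Both the 0 and the 0.645 came from libraries with few genes, and without the 4 the difference was -1.03 (adjusted p = 0.00168), against -0.47 with them. P2ry6 was at 107, 84.6 and 247 in C3aRKO and at 81.0, 151, 157, 150 and 181 in APP-KI;C3aRKO, and its difference moved from -0.08 to -0.61 (adjusted p = 0.00284) when the 4 were left out. P2rx7 went the other way, from -0.52 to -0.42 (adjusted p = 0.0547). Border macrophage markers moved here too, with a summed level of 396 to 604 in C3aRKO and at most 361 in APP-KI;C3aRKO (2 of 7 lower, and 3 of 7 without the 4 libraries), while the endothelial and pericyte sums overlapped (42.5 to 82.4 against 81.5 to 273); their part was not tested. Each value without the 4 sets the APP-KI;C3aRKO libraries against the lone library C3aRKO 3.

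**Figure D2:**
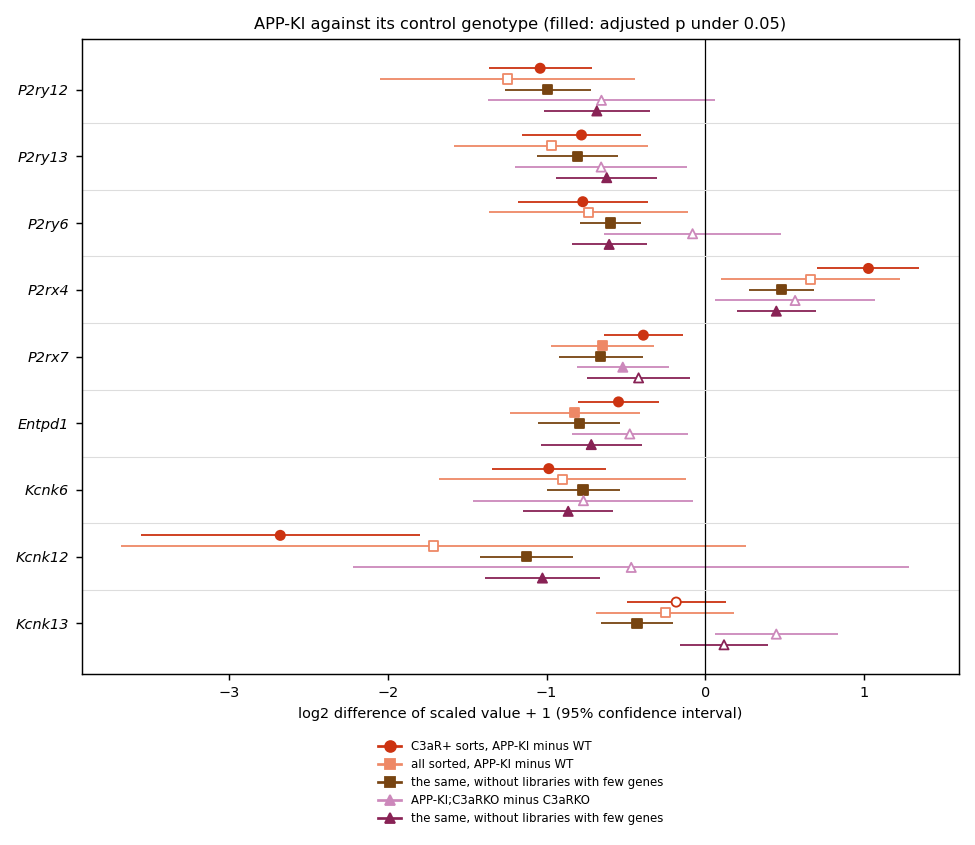
Log2 difference (horizontal axis) of each member in APP-KI against its control genotype, with 95% confidence intervals, in the C3aR+ sorts (n = 3 and 3), all sorted microglia and mice lacking C3ar1, the last 2 with and without the 4 libraries with few genes; filled symbols passed an adjusted p of 0.05. P2rx4 is to the right of 0 and P2ry12 to the left in all 5 fits, and the intervals of Kcnk12 with all libraries are the widest.

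The level of P2ry12 over that of P2rx4 within a library does not depend on the scaling. This ratio was 16.4 to 21.7 in WT C3aR+, 19.6 to 25.0 in WT and 22.0, 5.29 and 19.4 in C3aRKO. It was 3.84 to 4.92 in APP-KI C3aR+, 1.80, 8.03 and 7.55 in APP-KI and 2.14 to 10.3 in APP-KI;C3aRKO. Of the 9 libraries without the knockin, 8 thus lay at or above 16.4, and all 11 with it at or below 10.3; the exception was C3aRKO 2, a library with few genes. The ratio of P2rx7 to P2rx4 behaved alike, from 3.18 to 4.86 in the same 8 libraries and 1.95 in C3aRKO 2, against 0.902 to 1.98 in the 11 with the knockin. Both ratios pair genes reported above as moving in opposite ways, and both use P2rx4. They restate those differences and are no separate test. How many other pairs of genes split the libraries as well was not counted.

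**Figure D3:**
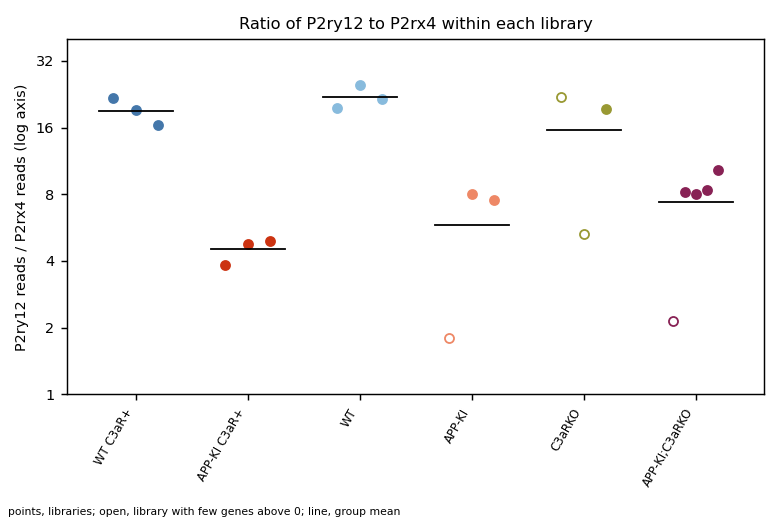
Reads of P2ry12 divided by reads of P2rx4 (vertical axis, log scale) in each of the 20 libraries, with group means as lines and the 4 libraries with few genes as open points. The libraries of APP-KI genotypes lie at or below 10.3 and all others but 1 at or above 16.4.

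Loss of C3ar1 was then compared on each App background. No member was called in either comparison, where C3ar1 itself was the only gene called (0.00806% of 12407 genes): its log2 difference was -2.39 (standard error 0.27, adjusted p = 0.00339) in C3aRKO against WT and -1.95 (standard error 0.24, adjusted p = 0.00972) in APP-KI;C3aRKO against APP-KI. Without the 4 libraries 2 genes (0.0159% of 12563; 0.00796% higher and 0.00796% lower) and 1 gene (0.00796%, lower) were called, C3ar1 in both. At an unadjusted p under 0.05 there were 123 genes higher and 221 lower in the first comparison, 2 of them members, and 38 higher and 109 lower in the second, none a member, and edgeR and DESeq2 called no member either.

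In C3aRKO against WT the members ran from -1.16 (Kcnk12) to 0.10 (P2rx4). Kcnk13 was lower in every knockout library, with 48.3, 55.0 and 82.6 against 119, 96.3 and 100.3 in WT, a log2 difference of -0.73 (95% confidence interval -1.17 to -0.30, unadjusted p = 0.00275, adjusted p = 0.995 from limma). P2ry12 (-0.36, interval -1.16 to 0.45) and Kcnk12 were also lower in every C3aRKO library, so that 3 members lay lower without overlap, beside 9.31% of genes (9.16% higher). For P2ry12 and Kcnk12 the groups barely separated. C3aRKO 3 held 1982 for P2ry12 against a lowest WT value of 1986, and 18.4 for Kcnk12 against 18.5. The lowest 2 C3aRKO values of Kcnk13, P2ry6 and Kcnk12 were those of C3aRKO 1 and 2, which have few genes. Without the 4 libraries the difference was -0.33 for Kcnk13 (adjusted p = 0.312), -0.10 for P2ry12, -0.05 for Kcnk12 and 0.03 for P2ry6 (-0.64 with them).

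In APP-KI;C3aRKO against APP-KI the members ran from -0.15 (Kcnk6) to 0.33 (Entpd1). Entpd1, at 571, 637, 808, 664 and 815 against 450.1, 559.7 and 566 in APP-KI, was higher in every library, beside 0.604% of genes (1.01% were lower). Its log2 difference was 0.33 (interval -0.04 to 0.70, adjusted p = 0.998) with all libraries and 0.34 (interval 0.09 to 0.59, adjusted p = 0.833) without the 4, so it did not pass the test. For P2ry12 the difference was 0.24 (interval -0.48 to 0.95) and 0.21 (interval -0.06 to 0.47). Without the 4 libraries, the lower ends of the intervals for P2rx4 (-0.12) and the upper ends for Kcnk6 (0.23) bound what these libraries could show; with all libraries those bounds were -0.50 and 0.55.

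**Figure D4:**
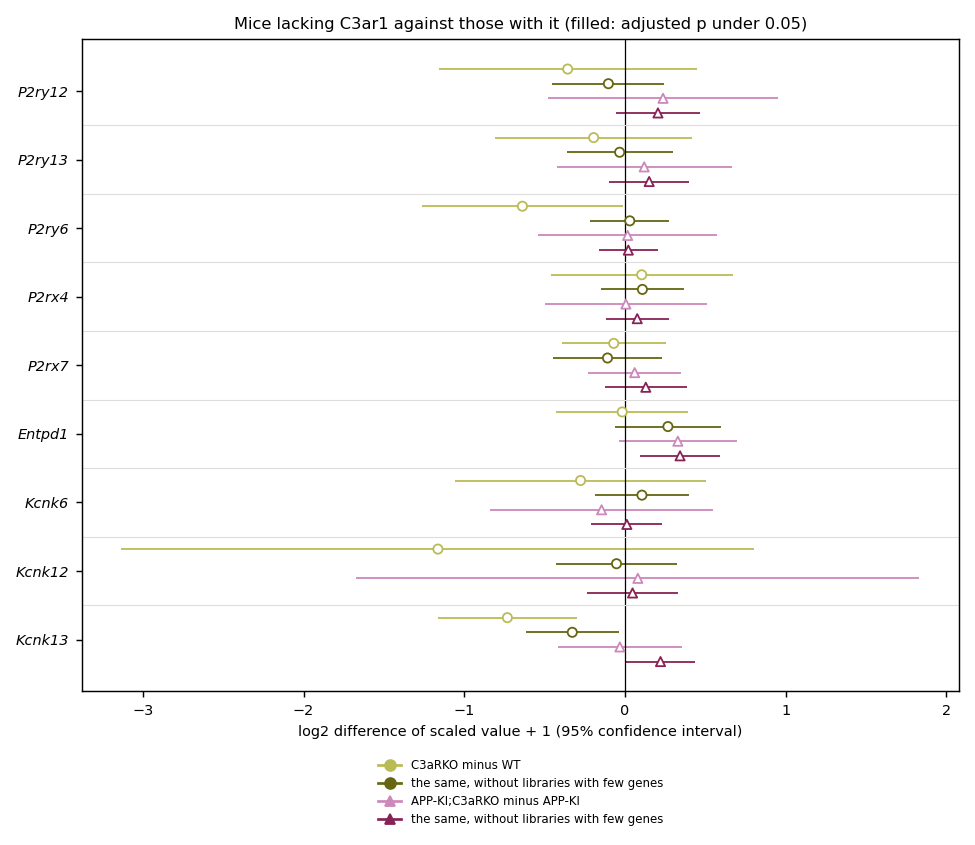
Log2 difference (horizontal axis) of each member in mice lacking C3ar1 against mice with it, on the WT and the APP-KI background, with 95% confidence intervals, with and without the 4 libraries with few genes; no symbol is filled, since no member passed an adjusted p of 0.05. The intervals with all libraries are widest for Kcnk12, and Kcnk13 is the member farthest below 0 relative to its interval in C3aRKO against WT.

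Whether C3ar1 loss acted differently on the App backgrounds was tested as an interaction. No gene was called (0% of 12407; an unadjusted p under 0.05 was reached by 111 genes upwards and 92 downwards, none called by edgeR and 1 by DESeq2, which was no member). Kcnk13 was the only member with an unadjusted p under 0.05, with a difference of differences of 0.70 (interval 0.11 to 1.29, adjusted p = 0.998) and, without the 4 libraries, 0.55 (interval 0.20 to 0.90, adjusted p = 0.282). The P2ry12 value was 0.59 with an interval from -0.50 to 1.69.

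The sorts were compared within each genotype, over 12 libraries. The C3aR+ libraries all belong to 1 library series that holds no others. Per the paper, their mice came from a separate cross with the reporter line. Sort, reporter allele and series therefore cannot be told apart. No member and no other gene was called by limma or edgeR (0% of 12589 in both comparisons and in their difference; no member had an unadjusted p under 0.05). At that unadjusted threshold 126 genes were higher and 426 lower in WT, 200 and 457 in APP-KI, and 836 and 644 in their difference, and DESeq2 called 2 higher and 37 lower, 1 and 27, and 87 and 33. Without APP-KI 4, 12 genes were lower in WT C3aR+ (0.095% of 12632), C3ar1 among them and no member. In WT all 9 members were somewhat lower in the libraries labelled C3aR+, from -0.35 (Kcnk12) to -0.06 (P2rx4), P2ry12 with -0.27 (interval -0.89 to 0.35). Of these members 4 did not overlap, beside 13.2% of genes lower and 9.74% higher. At the unadjusted threshold all genes leaned lower there too (426 lower and 126 higher, as above). The shared direction is therefore not read as particular to the members. In APP-KI, P2rx4 was 217, 159 and 196 in the C3aR+ sort and 236, 126 and 144 without it, a difference of 0.22 (interval -0.22 to 0.65), and Entpd1 was the only member without overlap, higher in C3aR+, beside 1.86% of genes higher and 4.21% lower. Kcnk12 was at 1.91, 1.17 and 1.34 in APP-KI C3aR+ and at 0, 7.23 and 9.21 in APP-KI; without APP-KI 4 the difference was -1.90 (adjusted p = 0.133) and the difference of the knockin effect between sorts -1.55 (interval -2.39 to -0.71, adjusted p = 0.244). Without APP-KI 4 the members ran from -1.90 (Kcnk12) to 0.48 (P2rx4) between the APP-KI sorts. An unadjusted p under 0.05 (limma) was then reached by 4 of 9 members there and by 2 of 9 in the difference of the knockin effect. None of these passed the adjusted threshold, and none of the 12632 genes tested did so in either comparison. The share of all genes under the unadjusted 0.05 without APP-KI 4 is not given here. The counts of 4 and 2 are therefore not read as particular to the members.

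Other genes of the pathway were read from lists. Of 11 other K2P genes 3 were tested and 2 were higher in APP-KI in each of the 3 knockin comparisons. Of all genes 13% were higher in the C3aR+ sorts, 2.22% in all sorted APP-KI and 3.96% in APP-KI;C3aRKO against C3aRKO. Kcnk9, the acid sensitive channel TASK-3, was at 5.50, 5.08 and 1.96 in WT C3aR+ and at 54.6, 92.9 and 163 in APP-KI C3aR+ (log2 difference 4.28, adjusted p = 0.000208), at 5.40, 1.00 and 1.55 in WT and 115, 53.0 and 78.3 in APP-KI (4.49), and at 7.68, 0.519 and 5.42 in C3aRKO against 142.5, 71.1, 73.1, 49.1 and 60.2 in APP-KI;C3aRKO (4.20). Every APP-KI library was above every library without the knockin, those with few genes included. Kcnk3, the related TASK-1, was at most 0.245 in all libraries without the knockin and at 2.59, 11.7 and 21.4 in APP-KI C3aR+, 0.590, 10.2 and 9.18 in APP-KI and 9.57 to 25.3 in APP-KI;C3aRKO. The log2 difference of Kcnk3 was 3.19 (adjusted p = 0.00827) in the C3aR+ sorts, where the size depends on the pseudocount because Kcnk3 was under 1 in WT. Kcnj2, the inward rectifier Kir2.1 of reactive microglia, was higher in all 3 (2.68, 2.57 and 2.94). With the 4 libraries left out, the differences in all sorted APP-KI and in APP-KI;C3aRKO against C3aRKO were 4.28 and 3.19 for Kcnk9, 3.32 and 3.85 for Kcnk3 and 2.49 and 2.52 for Kcnj2, all called.

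**Figure D5:**
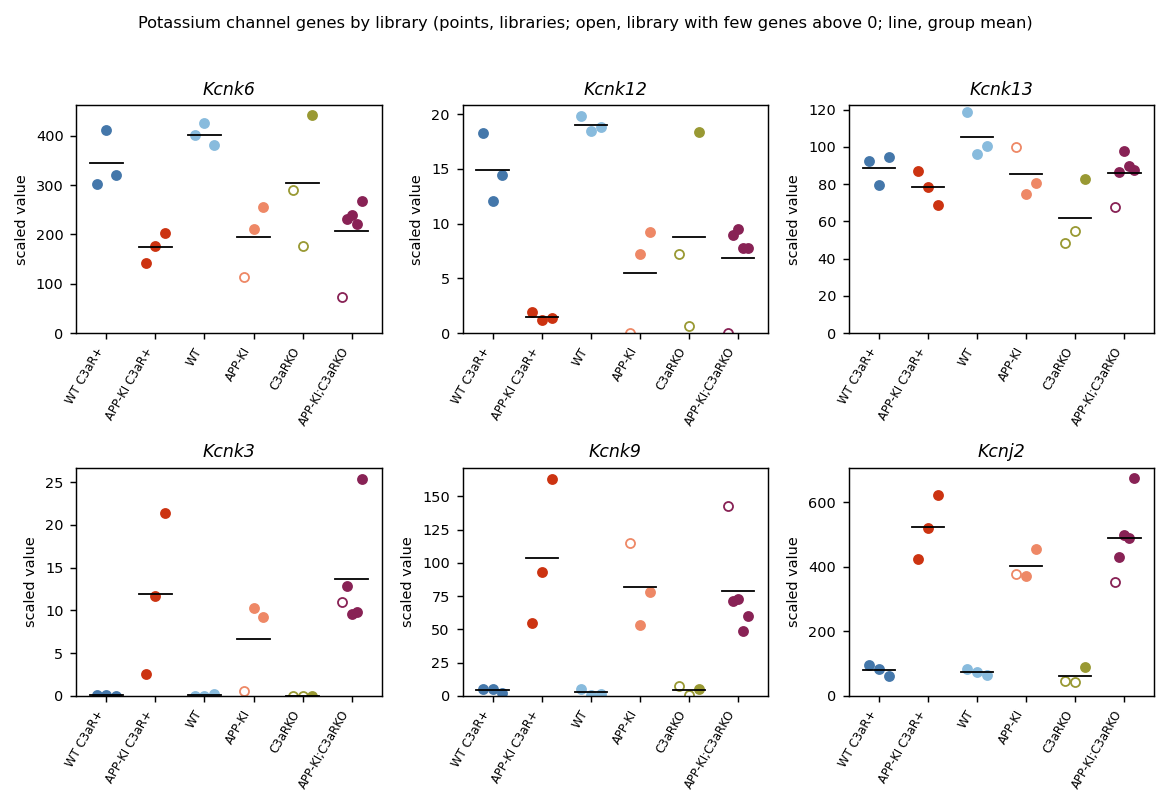
Scaled value (vertical axis, linear, from 0) of the 3 K2P members and of Kcnk3, Kcnk9 and Kcnj2 in each of the 20 libraries by group; lines are group means and open points the 4 libraries with few genes. Kcnk6 and Kcnk12 lie lower in both APP-KI sorts than in the WT of the same sort, and Kcnk9 is at 49.1 or more in every library with the App knockin against at most 7.68 in the others.

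Of 10 other P2 receptor genes 3 were tested in the C3aR+ sorts and 1 was lower, P2rx1, a fast ATP channel, at 12.8, 8.64 and 20.3 against 0.931, 1.34 and 2.20 (-2.54, adjusted p = 0.00375). Among adenosine receptors, the Gi-coupled Adora1 was higher in the C3aR+ sorts (2.51, 1.66 and 2.63 against 13.8, 22.8 and 15.9; 2.49, adjusted p = 0.00169), and Adora3 was lower in all sorted APP-KI (-0.73, adjusted p = 0.0485). Of the 15 tested genes of nucleotide breakdown and adenosine handling 2 were higher and 3 lower in the C3aR+ sorts; Enpp1, which cleaves ATP to AMP and pyrophosphate, was higher (1.42), and Ada, which removes adenosine, was lower (-1.77), as was Enpp4 (-1.70). Enpp1 was higher in all sorted APP-KI (1.43) and in APP-KI;C3aRKO against C3aRKO (0.95) too. Of 5 tested genes of ATP release 1 was called, Ank, a transporter of pyrophosphate and ATP, with 99.5, 66.7 and 75.5 in WT C3aR+ and 612, 973 and 1481 in APP-KI C3aR+ (3.58); it was also called in all sorted APP-KI (3.66) and in APP-KI;C3aRKO against C3aRKO (3.57). Leaving out the 4 libraries, these last 2 comparisons gave 3.82 and 3.92 for Ank, 1.58 and 1.63 for Enpp1 and -0.82 and -0.69 for Adora3, all called. The 5 of 15 genes of nucleotide breakdown, and the counts of P2 receptor and ATP release genes, are read beside 22.7% of all genes called in the C3aR+ sorts.

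Of 15 genes of P2Y12 signalling 3 were called in the C3aR+ sorts, a share near the 22.7% of all genes called. Pik3r5, a regulatory subunit of the phosphoinositide 3-kinase that Gi-coupled receptors activate, was lower (-0.68) and was lower in both other knockin comparisons (-0.84 and -0.82, and -0.90 and -0.79 without the 4 libraries); Gnai3 was lower (-0.53) and Rgs1 higher (1.50) in the C3aR+ sorts. Of 10 genes of the NLRP3 inflammasome and interleukin-1, 3 were higher in the C3aR+ sorts, among them Il1b (29.1, 24.5 and 33.3 against 62.5, 145 and 165; 1.96) and Il1rn (1.72), and Gsdmd was lower (-0.48). In all sorted APP-KI none of the 10 was called, and Il1b was at 30.1, 82.4 and 134 in WT and 31.8, 34.0 and 56.8 in APP-KI. Med12l, around P2ry12 and P2ry13, was lower in the C3aR+ sorts (-0.81, adjusted p = 0.0118); it shares 9 exonic bases with P2ry12 and none with P2ry13, and the strand setting of the counting is not given in the sources used here. Other homeostatic genes were called lower in 7 of 14 cases in the C3aR+ sorts, Crybb1 (-1.77), Tmem119 (-1.45) and Adgrg1 (-1.29) by the most. Of the plaque-associated list 11 genes were higher, Gpnmb (8.40), Cst7 (7.07) and Spp1 (6.04) by the most. That list holds more genes than these 11. The list counts in the C3aR+ sorts are read beside 13% of all genes higher and 9.71% lower. Without the 4 libraries with few genes, in all sorted APP-KI, 2 of 3 tested K2P genes were higher. There 1 of 4 P2 receptor genes was higher and 1 lower, and 1 of 10 inflammasome genes was higher and 4 lower. Of all genes in that comparison 13.2% were higher and 14.7% lower.

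The likeness of the members across the 20 libraries is given as Pearson's r of log2 values; the libraries differ in genotype, sort and series, so the points are not independent of the groups. P2ry12 was most like Tnfrsf1b (0.979), its neighbour P2ry13 (0.976) and Ttyh3 (0.973) among 12374 genes. P2ry13 was followed by Selplg and Adgrg1, Kcnk6 by Lrrc3 (0.983), Mgat1 and Serinc3, and P2rx4 by Eea1 (0.979), Wdr91 and Lyst. Kcnk12 was most like Tlr9 (0.966), P2ry6 like Ctdsp2 (0.957), P2rx7 like Fmnl1 (0.956) and Entpd1 like Itpripl1 (0.947). Over the 20 libraries Kcnk13 stood apart from the other members, with r between -0.08 and 0.50 to them and at most 0.853, to Slc25a29, over all genes. Among the other 8 members, P2rx4 had negative values to all 7 others, from -0.91 (P2ry12) to -0.72 (P2ry6). Over the 16 libraries left without those with few genes, P2ry12 was most like Zfp703 (0.976), Tnfrsf1b and Adgrg1, with 0.968 to P2ry13. There Kcnk13 stood less apart, with r of -0.44 to P2rx4 and from 0.41 (P2ry6) to 0.63 (Kcnk12) to all the other members. P2rx4 had r between -0.90 (Kcnk6) and -0.73 (P2rx7) to the members other than Kcnk13. The likest gene was the same as over 20 libraries for 1 member, Kcnk6 (Lrrc3, 0.989).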

How the data were processed

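Bulk RNA of sorted mouse microglia was sequenced in 20 libraries. Per the paper's methods and the labels, the authors made SMARTer total RNA libraries with molecular identifiers, sequenced them on a NovaSeq, trimmed with cutadapt, aligned with TopHat2 to mm10, counted with featureCounts and compared groups with DESeq2; the strand setting is not given in the sources used here. The deposited values, named FPKM by the authors, are a signal: reads per gene over that library's upper quartile (percentile 75), with no division by length. Whole reads were recovered for 100% of values in all libraries (tolerance 0.01).

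Of 21326 rows, 11 with a repeated symbol were summed. A constant of 35.2 brought 1 read to 0.0132 to 0.0786, and log2(scaled value + 1) was tested with limma 3.58.1 (R 4.3.3) with a mean-variance trend, for genes with a mean of at least 1, with Benjamini-Hochberg adjustment over all genes tested and a threshold of 0.05. A difference on this scale understates the change of low genes. The 6 C3aR+ libraries were fitted alone, the 14 others with a term for the library series (known only from library numbers), and the sorts in 12 libraries without it. The settings varied were the pseudocount (0.1), the filter (none, or 5), median ratio scaling, edgeR 4.0.16 and DESeq2 1.42.0 on recovered reads, a replicate block, no series term, only the groups compared, a threshold of 0.0005 and each library left out; leaving out the 4 libraries with few genes (also with APP-KI 5, and for the correlations) and the later series alone were added after seeing the data. All fits were tested on simulated counts with 200 changed genes; in the all sorted APP-KI design the fit recovered 17% of genes with a true log2 difference of 1 and 67% of genes with one of 2. On recovered reads edgeR called 1770 genes higher and 659 lower in the C3aR+ sorts.

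The members and lists were chosen with earlier results of these data known. All members are named; of each other list, the 3 called genes with the largest differences each way in a comparison may be named, and for each member the 3 genes of highest r. Marker lists not counted above had these counts in the C3aR+ sorts: astrocyte markers 1 higher and 1 lower of 7, oligodendrocyte 1 higher of 5, neuronal 0 of 2, monocyte and neutrophil 0 of 5, microglia 4 lower of 8, and genes raised by warm dissociation 1 higher and 3 lower of 10, T, B and NK cell 0 of 2. The marker counts are read beside 13% of all genes higher and 9.71% lower in that comparison. Positions are from GENCODE M21. No replicates held the same values: the chi-square of their counts ran from 18.5 to 786.5 per degree of freedom. Intervals cover the spread between libraries, and counting floors counting error only.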

Additional observations from a re-analysis of the deposited data

Results flagged for a closer look

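In APP-KI;C3aRKO, the group of 5 libraries, the value of P2rx4 in replicate 1 (227) stood above the other 4 by more than their spread allows, and those of Kcnk6 (72.9) and Kcnk12 (0) in the same library stood below. A gap beyond the 95% critical value of Dixon's ratio (0.71 for 5 samples) arises by chance in about 1 of 20 groups, and 10 genes were checked. That library is among the 4 with few genes above 0. Its part in these values was not tested beyond the fits without it.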

How the results depend on the processing

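Of the single-gene differences given above, most kept their direction and their side of the threshold. With limma and all libraries, 0 members were called at an adjusted p under 0.0005 in any comparison; P2ry12 and Kcnk12 passed it in all sorted APP-KI without the 4 libraries with few genes. In the C3aR+ sorts 8 members were called, 5 with median ratio scaling and 6 to 8 with a library left out. In all sorted APP-KI against WT 2 were called. There were 1 with no filter, 1 with the replicate block, 0 with only the groups compared and 4 with DESeq2. Without the 4 libraries with few genes 9 were called, beside 27.9% of all genes. With a library left out there were 0 to 5 (5 without APP-KI;C3aRKO 1). Without the 4 and APP-KI 5, and in the later series alone, 1 APP-KI library remains, so those counts are not given. In APP-KI;C3aRKO against C3aRKO 1 was called. There were 0 with no filter, median ratio scaling, edgeR, the replicate block or only the groups compared, and 0 to 2 with a library left out. Without the libraries with few genes, and in the later series alone, C3aRKO 3 is the lone C3aRKO library, so those counts are not set beside these. The other comparisons had 0 throughout. P2ry12 in C3aRKO against WT turned to 0.027 with the replicate block. P2ry6 there turned to 0.030 without the libraries with few genes, 0.023 without those and APP-KI 5 and 0.016 in the later series (its lowest value with a library left out was -1.01), and in APP-KI;C3aRKO against C3aRKO to 0.089 with no series term. With a library left out, P2ry6 in that comparison ran from -0.28 to 0.28 (-0.60 when the 4 libraries and APP-KI 5 were out), Kcnk12 from -1.18 to 0.16, and P2ry12 in APP-KI;C3aRKO against APP-KI from -0.092 to 0.51; the cause was not tested. Same-numbered libraries had an r of -0.31 to 0.27 in their deviations from the group mean. The same-numbered library was the closest partner in some cases and not in others. With so few libraries per group this cannot decide whether the numbers pair them. With the replicate block the C3aR+ sorts had 7 members called (P2rx7 lost). The call of C3ar1 was lost without WT 4 (C3aRKO against WT, -2.42) and without APP-KI 5 or APP-KI 6 (APP-KI;C3aRKO against APP-KI, -1.81 and -1.68), and in both comparisons with the replicate block (-2.44, adjusted p = 0.995, and -1.82, adjusted p = 0.707) and with only the 2 groups compared (-2.36, adjusted p = 0.182, and -1.93, adjusted p = 0.603). In APP-KI;C3aRKO against C3aRKO the counts of 2 came without C3aRKO 2 or APP-KI;C3aRKO 2. Depth limits the low genes most: Kcnk12 had 17 reads in 1 library labelled APP-KI C3aR+.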
